A study of Rattus norvegicus with 3 samples.

Results

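Levels of 10 transcription factors of the neural crest and of epithelial-mesenchymal transition (EMT) were examined in Schwann cell precursors, early glial cells of the embryonic nerve, grown in culture. The 10 genes, Snai1, Snai2, Twist1, Zeb1, Zeb2, Ets1, Zic1, Tfap2a, Tfap2b and Pax3, were taken by name from a table of 17337 genes, and each was found once. RNA sequencing had been done on 3 libraries of untreated, wild-type primary glial cells from dorsal root ganglia of embryonic rats, kept in a DMEM-based modified Sato medium. The libraries form 1 group with no second condition, so the data give levels and not responses. Separate cultures or animals are not named in the labels. The p-values therefore reflect library-to-library spread, possibly a technical one.

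The neural crest is a transient population that leaves the dorsal neural tube, migrates and gives rise to peripheral neurons, glia, melanocytes and craniofacial mesenchyme. Pax3, Zic1 and the AP-2 factors act early, at the border of the neural plate, and the SNAI, ZEB, Twist and Ets1 factors act in the loss of epithelial contacts and the start of migration. Schwann cell precursors descend from crest cells and retain part of this factor set, which cells of fibroblast type also use.

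Values are TPM, the count per length of a gene scaled to the same total in every library, ± SD over the libraries (n = 3). Total counts were between 14139074 and 15309526 per library. For a gene of median length, 3 counts equal 0.216 to 0.232 TPM. The Schwann cell precursor markers were present, with 10 of 10 above 1 TPM and a summed level between 10112 and 10337 TPM. Counts of markers above 1 TPM, by the limma test given with the levels of the factors, are to be read beside the 78.4% of all 13345 genes with a count that were called above. Markers of other cells were measured as well. Of 9 fibroblast markers 7 were above 1 TPM, with a summed level between 8541 and 8747 TPM, led by Col1a1 at 3842 ± 64.6, Col3a1 at 2009 ± 34.3 and Dcn at 842 ± 20.3. All 6 mural markers were above 1 TPM (summed level 947 to 999), and so were all 8 measured sensory neuron markers (508 to 530) and 4 of 6 meningeal markers (671 to 708). Of 10 endothelial markers 4 were above 1 TPM and 5 below, with Cldn5 at no count and a summed level of 37.98 to 39.61 TPM. Of 6 lymphocyte markers, Cd3d, Cd3e and Cd2 had no count and the list summed to 0.691 to 1.51 TPM. Of 6 macrophage markers 4 were above 1 TPM (summed level 24.7 to 29.8). Of 4 autonomic markers 2 were below 1 TPM, and Phox2a and Hand2 had no count. Of 6 melanocyte markers 3 were above 1 TPM, namely Kit at 27.8, Mitf at 3.35 and Tyrp1 at 1.96 TPM in the mean, and Mlana, Slc45a2 and Tyr had no count. The melanocyte list summed to 31.3 to 36.0 TPM. The part of these other cells in the levels of the 10 factors was not tested, and in bulk RNA fewer cells of a type and less RNA per cell cannot be told apart.

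All 10 factors were expressed, at levels that spanned 26.5-fold from Tfap2b to Zeb2. By limma, with log2(TPM + 1) set against its value at 1 TPM, all 10 were above 1 TPM at a Benjamini-Hochberg adjusted p under 0.05, where 78.4% of the 13345 genes with a count were called above. All 10 were also at 10 TPM or more in each library, which 47.4% of all listed genes were. The median of the 10 was 44.9 ± 0.567 TPM, and the median of all genes tested was 21.7 ± 0.195 TPM. The order by mean level was Zeb2, Zeb1, Ets1, Zic1, Snai2, Snai1, Twist1, Tfap2a, Pax3 and Tfap2b. For 8 of the 9 neighbours in this order the library values did not overlap. Snai1 and Twist1 did overlap, and Snai1 was the higher in 2 of 3 libraries.

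**Figure D1:**
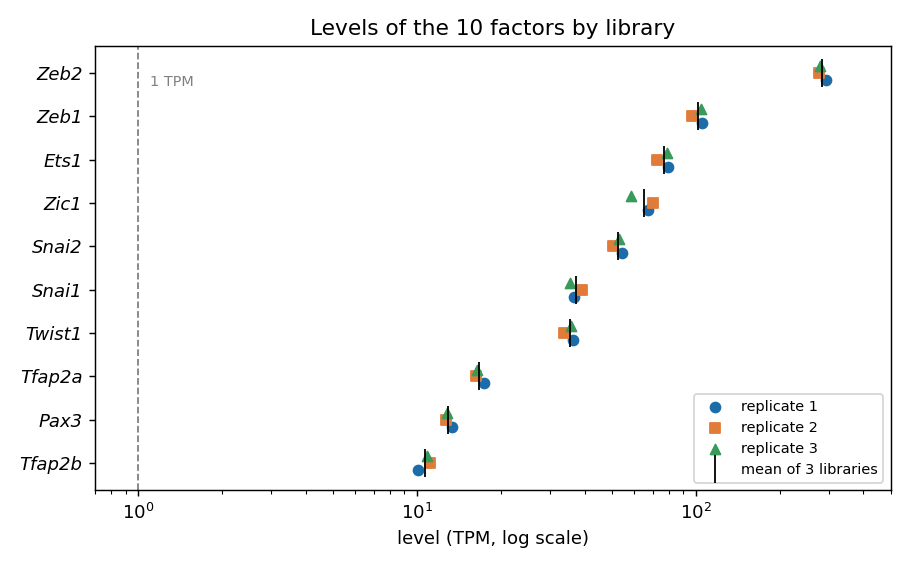
Levels of the 10 factors in each library, as TPM on a log axis, with the mean of the 3 libraries as a black bar and 1 TPM as a dashed line. The library values of Zeb2 lie above 276 TPM and those of Tfap2b near 10 to 11 TPM, and overlap between neighbours is seen only for Snai1 and Twist1.

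The SNAI proteins are zinc finger repressors that bind E-boxes in promoters of epithelial genes such as E-cadherin. Snai2 (Slug) was at 54.2, 50.6 and 52.9 TPM in replicates 1, 2 and 3, and Snai1 (Snail) was at 36.6, 39.2 and 35.5 TPM. Snai2 was the higher in all 3 libraries, without overlap. The log2 ratio of Snai2 over Snai1, with 0.1 TPM added to each, was 0.50 ± 0.06 (SE; limma adjusted p = 6.23e-16), in a fit of all genes against Snai1 that called 35.3% of them higher. This order rests on gene length. Snai1 had the larger mean count, 417 against 299 for Snai2, over a listed length of 1596 bases against 807. The third member of the family, Snai3, had 5 counts in all and was below 1 TPM. The mean of Snai2 was 351-fold that of Snai3, with a 95% exact Poisson interval of 151-fold to 1082-fold for counting error. The log2 ratio was 7.75 ± 0.28 (limma adjusted p = 1.12e-167), where 85.9% of genes were called higher than Snai3, and it became 5.54 with a pseudocount of 1 TPM. The p-values of all these pair fits are too small, because all genes in a fit share the error of the reference gene. With separate errors for the genes of a pair the limma adjusted p was 1.84e-05 for Snai2 over Snai1. It was 3.57e-08 by limma for Snai2 over Snai3. In rn6, Snai1 (NCBI gene 116490) spans bases 164274710 to 164279196 of chromosome 3 (plus strand), and Snai2 (25554) spans 90404421 to 90406730 of chromosome 11 (minus strand). Both have 3 listed exons.

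The ZEB proteins carry zinc finger clusters at both ends around a homeodomain and bind paired E-boxes. Zeb2, which Schwann cells need for myelination and repair, was the highest of the 10 factors. It was at 293, 276 and 280 TPM in replicates 1, 2 and 3, above 95.4% of genes with a count. Zeb1 was at 106, 96.9 and 104 TPM, above 84.6% of them. Replicate 1 was the highest and replicate 2 the lowest for both genes, and the ranges of the genes lay far apart. The log2 ratio of Zeb2 over Zeb1 was 1.47 ± 0.05 (limma adjusted p = 5.12e-17, 14.3% of genes called higher than Zeb1), or 2.77-fold in the means. Zeb2 was higher by count and by TPM. Zeb2 (311071) spans bases 29862473 to 29984201 of chromosome 3 (minus strand) with 9 listed exons, and Zeb1 (25705) spans bases 54656627 to 54714914 of chromosome 17 (minus strand) with 7.

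Genes that Zeb2 is described as repressing in Schwann cells were expressed beside it. Ednrb, an endothelin receptor, was at 1414 ± 16.7 TPM. Sox2, a factor of immature glia, was at 263 ± 11.8, and Hey2, a Notch effector, at 66.2 ± 0.778. All 3 were above 1 TPM by limma, as were 78.4% of all genes tested. Of corepressors through which SNAI and ZEB proteins act, 13 of 13 measured were above 1 TPM (78.4% of genes tested were). The list median was 87.1 ± 1.84 TPM. The deacetylase genes Hdac2 and Hdac1 were at 236 ± 4.26 and 199 ± 3.01, and Ctbp1, the corepressor bound by ZEB proteins, at 235 ± 3.05. The lowest of the list was the LIM protein gene Ajuba at 18.1 ± 0.374. Of the enzymes that mark Snail proteins for turnover or localisation, 8 of 8 measured were above 1 TPM, beside the same 78.4%. Their median was 49.3 ± 0.578 TPM. The kinase gene Gsk3b was at 121 ± 3.40 and Lats2 at 79.1 ± 2.55, and the ubiquitin ligase genes Fbxo11 and Btrc were at 61.0 ± 2.14 and 27.8 ± 3.02.

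Genes on the far side of the transition differed by class. Of 25 measured epithelial genes, 15 were below 1 TPM by limma (17.8% of genes tested were), 4 were above, 1 passed in neither direction and 5 had no count. The list median was 0.0803 ± 0.0306 TPM. The keratin genes Krt5, Krt14, Krt18 and Krt19 had at most 1 count in any library. Claudin and polarity genes were as low, with Cldn7 at 0.121, 0 and 0.260 TPM, Crb3 at 0.124, 0.133 and 0, and Ocln at 0.033, 0.035 and 0.106 in replicates 1, 2 and 3. Epithelial master regulators Grhl2, Ovol2 and Esrp1 had no count. The 4 above 1 TPM were Cdh1, the desmosomal gene Pkp1 at 10.5 ± 0.432, the Grainyhead factor gene Grhl3 at 6.85 ± 0.655 and the keratin gene Krt8 at 3.21 ± 0.249.

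Cdh1, which encodes E-cadherin and is the best known target of SNAI and ZEB repression, stood apart from its list. It was at 35.1, 31.4 and 33.4 TPM, close to Snai1 and Twist1 and with 3102 counts over the libraries. E-cadherin is also a component of the autotypic junctions of Schwann cells. Which cells of the culture gave the Cdh1 RNA was not tested. N-cadherin (Cdh2) was at 201, 190 and 195 TPM, and its log2 ratio over Cdh1 was 2.55 ± 0.05 (limma adjusted p = 1.79e-24, 37.8% of genes called higher than Cdh1), or 5.86-fold in the means. All 19 mesenchymal genes were above 1 TPM, where 78.4% of genes tested were. They were all at 10 TPM or more in each library, where 47.4% of all listed genes were. Their median was 586 ± 13.1 TPM. The intermediate filament gene Vim was at 12837 ± 380, the matrix gene Sparc at 7338 ± 53.5, and the protease genes Mmp14 and Mmp2 at 807 ± 13.3 and 729 ± 6.88. Several of these, such as Col1a1 and Col3a1, are also fibroblast markers.

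**Figure D2:**
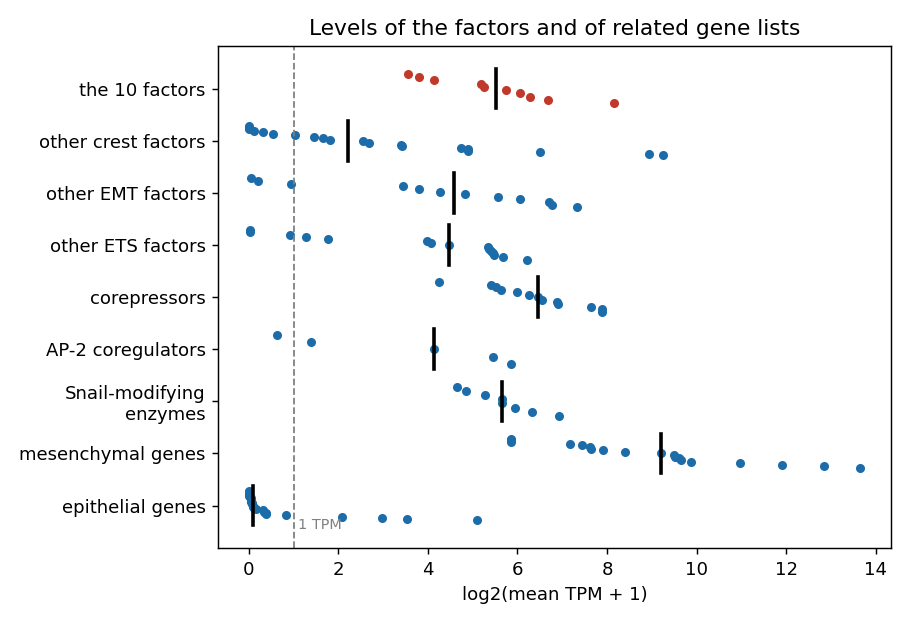
Each point is 1 gene, as log2(mean TPM + 1) over the 3 libraries, for the 10 factors (red) and 8 lists of related genes (blue), with the list median as a black bar and 1 TPM as a dashed line. The epithelial genes sit below the line except for 4, with Cdh1 farthest to the right, and every mesenchymal gene and every corepressor sits above it.

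The hexamer read by SNAI and ZEB zinc fingers is CACCTG, or CAGGTG on the other strand. It was searched in RefSeq promoter windows of the GRCr8 assembly, from 250 bases before to 50 bases after a gene's start. Over all RefSeq genes with a window, 20.1% held it. The share was 23.0% among 4633 genes under 1 TPM in every library and 16.02% among 6759 genes at 10 TPM or more in every library. Of the 25 measured epithelial genes 12 had a window, and 10 of these 12 held it. Cdh1 was not among these 10, so it either had no window or did not hold the hexamer there. Of 9 mesenchymal genes with a window, 1 held it. Among the 10 epithelial genes that held it, Krt8 and Grhl3 were above 1 TPM, and the gene list was chosen with earlier results known, so these counts are a description. Windows were found for 5 of the 10 factors. Snai1 held the hexamer once, 142 bases before its start, and Zeb1 held it 95 bases before and 37 bases after. Twist1, Zeb2 and Pax3 did not hold it. The AP-2 motif GCCNNNGGC (N is any base) was searched in the same windows. It was held by 5 of 9 mesenchymal genes, 1 of 12 epithelial genes and 1 of the 5 factors. Over all RefSeq genes with a window, 16.6% held this motif. Its share was 12.3% among genes under 1 TPM in every library and 26.9% among genes at 10 TPM or more in every library. A match of letters is not a bound site. The windows of Snai1 and Zeb1 are shown because these factors carry the hexamer that their own protein class reads, and those of Ocln, Crb3 and Cldn7 because these epithelial genes hold it 2, 3 and 5 times and were near 0 TPM. Sequences run 5′ to 3′ on the gene's strand, with the hexamer in capitals.
Snai1 (chr3:176667226-176667525, plus strand): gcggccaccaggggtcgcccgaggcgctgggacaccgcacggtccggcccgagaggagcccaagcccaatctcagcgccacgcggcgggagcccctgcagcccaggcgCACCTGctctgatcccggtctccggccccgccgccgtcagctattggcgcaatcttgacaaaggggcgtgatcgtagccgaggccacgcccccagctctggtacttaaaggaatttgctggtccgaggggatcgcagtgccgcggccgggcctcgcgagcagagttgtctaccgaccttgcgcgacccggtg
Zeb1 (chr17:56810604-56810903, minus strand): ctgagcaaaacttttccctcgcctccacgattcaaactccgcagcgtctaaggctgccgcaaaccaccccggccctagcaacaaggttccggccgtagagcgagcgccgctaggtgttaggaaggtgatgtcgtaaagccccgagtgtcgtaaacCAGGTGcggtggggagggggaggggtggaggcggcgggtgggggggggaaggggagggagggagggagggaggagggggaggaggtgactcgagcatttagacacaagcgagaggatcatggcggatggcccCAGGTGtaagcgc
Ocln (chr2:33441149-33441448, minus strand): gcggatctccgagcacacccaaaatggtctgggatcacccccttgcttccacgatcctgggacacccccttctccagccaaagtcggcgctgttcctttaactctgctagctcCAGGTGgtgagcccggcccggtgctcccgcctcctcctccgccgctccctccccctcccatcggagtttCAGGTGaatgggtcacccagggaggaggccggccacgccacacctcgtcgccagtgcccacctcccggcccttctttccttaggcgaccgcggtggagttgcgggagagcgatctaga
Crb3 (chr9:1987504-1987803, plus strand): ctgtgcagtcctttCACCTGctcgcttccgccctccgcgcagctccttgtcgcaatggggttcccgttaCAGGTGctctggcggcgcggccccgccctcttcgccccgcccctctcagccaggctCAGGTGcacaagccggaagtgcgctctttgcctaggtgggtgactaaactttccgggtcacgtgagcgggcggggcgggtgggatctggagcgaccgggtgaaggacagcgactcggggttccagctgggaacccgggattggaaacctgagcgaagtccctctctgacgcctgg
Cldn7 (chr10:55188420-55188719, plus strand): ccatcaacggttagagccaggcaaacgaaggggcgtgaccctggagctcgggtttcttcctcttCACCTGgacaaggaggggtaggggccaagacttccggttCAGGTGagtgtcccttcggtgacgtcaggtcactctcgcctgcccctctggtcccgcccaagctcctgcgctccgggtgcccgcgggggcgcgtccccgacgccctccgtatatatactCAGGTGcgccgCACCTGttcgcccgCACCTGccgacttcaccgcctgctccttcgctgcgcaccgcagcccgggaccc

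Twist1 is a basic helix-loop-helix factor that pairs with E proteins and drives EMT and crest mesenchyme. It was at 36.3, 33.8 and 35.6 TPM in replicates 1, 2 and 3. Its paralog Twist2 was at 11.6, 14.3 and 13.0 TPM. Twist1 was the higher in each library, by a log2 ratio of 1.44 ± 0.13 (limma adjusted p = 1.88e-30, 56.3% of genes called higher than Twist2), or 2.37-fold to 3.15-fold by library. Its E protein partners had higher mean levels. Tcf4 was at 46.6, 47.9 and 45.3 TPM, above Twist1 in 3 of 3 libraries, with a log2 ratio of Twist1 over Tcf4 of -0.40 ± 0.05 (limma adjusted p = 2.09e-06, 66.3% of genes called lower than Tcf4). Tcf3 was at 160 ± 3.13 and Tcf12 at 103 ± 3.70. Twist1 (85489) spans bases 53401241 to 53403234 of chromosome 6 (plus strand), with 2 listed exons.

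Of 12 other EMT factors measured, 9 were above 1 TPM and 2 below, a share above that was near the 78.4% of all genes tested. The mesenchymal homeobox gene Prrx1 was at 109 ± 4.27. The forkhead genes Foxc1 and Foxc2, also among the meningeal markers, were at 65.3 ± 2.44 and 27.4 ± 2.74. Below 1 TPM were Snai3 and the organizer homeobox gene Gsc, at 0.042 ± 0.0727, with 1 count in all.

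Ets1 encodes the founding ETS family factor, which acts in delamination of cranial crest cells and is also expressed in endothelium and lymphocytes. It was at 79.3, 72.9 and 79.2 TPM in replicates 1, 2 and 3. The lymphocyte markers Cd3d, Cd3e and Cd2 had no count. Of the 10 endothelial markers, Cdh5 at 16.6 ± 1.03, Emcn at 13.7 ± 0.836, Tek and Egfl7 were above 1 TPM. Pecam1, at 0.0693 ± 0.0695, Kdr, Tie1, Esam and Plvap were below, and Cldn5 had no count. The vascular ETS genes Fli1 and Erg, which are often expressed with Ets1 in endothelium, were at 1.42 ± 0.295 and 2.42 ± 0.904. Ets2, the closest paralog, was at 15.5, 15.6 and 16.3 TPM. Ets1 exceeded it by a log2 ratio of 2.28 ± 0.04 (limma adjusted p = 7.58e-20, 53.9% of genes called higher than Ets2), or 4.88-fold in the means. Of 15 other ETS genes 12 were above 1 TPM and 2 below, again near the 78.4% of all genes tested that were above. The highest was Etv5 at 72.8 ± 1.98, a target of FGF signalling, followed by Elk1 at 49.98 ± 5.08 and Gabpa at 43.2 ± 3.53. The library values of Etv5, 73.1, 70.7 and 74.6 TPM, overlapped those of Ets1. The epithelial ETS genes Elf3 and Ehf had 1 count each. Ets1 (24356) spans bases 33816386 to 33879625 of chromosome 8 (plus strand), with 8 listed exons.

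Zic1 and Pax3 mark the neural plate border, where their joint action specifies crest. Zic1, a zinc finger factor, was at 67.6, 70.4 and 58.5 TPM in replicates 1, 2 and 3, and Pax3, a paired box factor, was at 13.4, 12.7 and 12.8 TPM. The log2 ratio of Zic1 over Pax3 was 2.33 ± 0.05 (limma adjusted p = 6.04e-11, 57.7% of genes called higher than Pax3), or 5.06-fold in the means. With separate errors for the genes of this pair the SE was 0.0755 (limma adjusted p = 1.06e-08). Replicate 3 was low for Zic1 and not for Pax3. Zic2, a paralog of Zic1, was at 28.8, 29.4 and 28.6 TPM, and Zic1 exceeded it by a log2 ratio of 1.17 ± 0.05 (limma adjusted p = 8.92e-09, 41.8% of genes called higher than Zic2). The mean counts of Zic1 and Zic2 were closer, 621 and 575, over listed lengths of 1344 and 2824 bases. Zic5, another paralog, was at 4.83 ± 0.731 TPM. Zic1 (64618) spans bases 98734759 to 98738197 of chromosome 8 (minus strand) with 3 listed exons, 16907 bases from the nearest listed gene, Zic4.

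Pax7, the paralog that shares the border role of Pax3 in other vertebrates, had no count. With Pax7 set at 3 counts in each library, Pax3 was at least 46.0-fold higher. Genes described as Pax3 targets in crest derivatives were low. The receptor genes Met and Ret were at 5.56 ± 0.436 and 4.82 ± 0.218, and the melanocyte factor gene Mitf was at 3.88, 3.46 and 2.70 TPM, each above 1 TPM by limma. Pax3 (114502) spans bases 84005183 to 84101172 of chromosome 9 (minus strand), with 9 listed exons.

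The AP-2 factors Tfap2a and Tfap2b act in crest induction, and Tfap2a is a marker of the precursor stage that is lost as Schwann cells mature. Tfap2a was at 17.4, 16.3 and 16.4 TPM in replicates 1, 2 and 3, and Tfap2b at 10.1, 11.1 and 10.9 TPM. Both were under the median of all genes tested. Tfap2a was the higher in 3 of 3 libraries, by a log2 ratio of 0.64 ± 0.09 (limma adjusted p = 2.3e-12, 59.9% of genes called higher than Tfap2b). Their listed lengths, 3207 and 3406 bases, are close. Tfap2c was at 2.43, 2.44 and 1.55 TPM, and Tfap2a exceeded it by a log2 ratio of 2.93 ± 0.27 (limma adjusted p = 6.67e-27, 73.3% of genes called higher than Tfap2c). Tfap2e had no count. Tfap2b is also a gene of sympathetic neurons, of whose markers Phox2a and Hand2 had no count and Th was at 0.214 ± 0.125. Tfap2a (306862) spans bases 24654902 to 24670424 of chromosome 17 (plus strand) with 10 listed exons, and Tfap2b (301285) spans bases 25410669 to 25440416 of chromosome 9 (plus strand) with 8.

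Coregulators of AP-2 were uneven. Cited2, a coactivator, was at 56.9 ± 3.16 TPM, while Cited1 was below 1 TPM at 0.560 ± 0.435 and Cited4 passed in neither direction at 1.64 ± 0.714. Kctd15, which inhibits AP-2 and limits crest formation, was at 42.6 ± 0.847, and Kctd1, of the same class, at 16.5 ± 1.52.

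**Figure D3:**
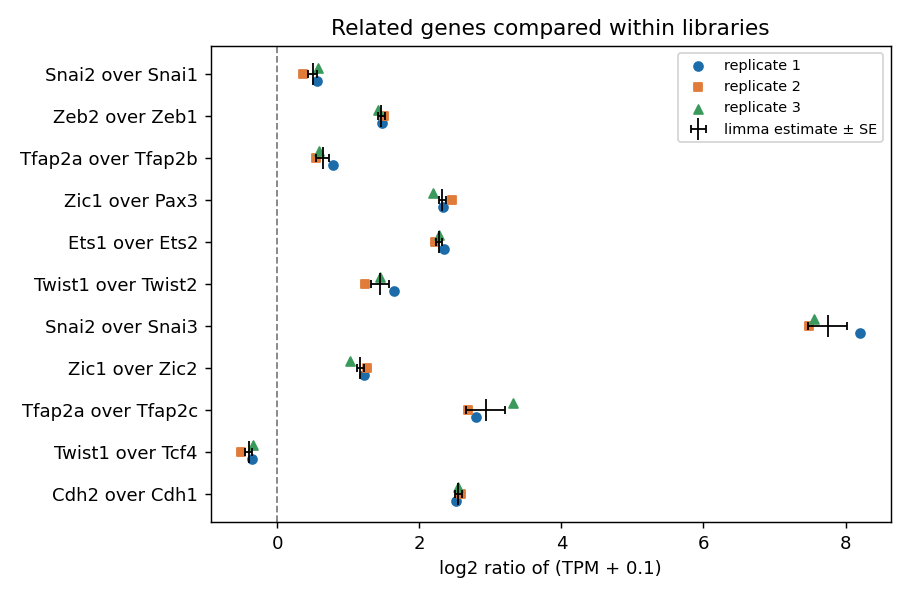
Log2 ratios of TPM + 0.1 for 11 pairs of related genes, by library (coloured symbols), with the limma estimate ± SE in black and equal levels as a dashed line. The SE is that of the fits in which all genes share the error of the reference gene. Twist1 over Tcf4 is the single pair to the left of the line, at -0.40, and Snai2 over Snai3 lies farthest to the right, at 7.75.

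All 11 tested pairs passed, 10 with the named factor or Cdh2 higher and 1 with it lower. In each fit all genes share the error of the reference gene, so these p-values are too small. With separate errors for the genes of a pair, added after the data were seen, all 11 passed by limma and the largest adjusted p was 9.02e-05. The SE changed in both directions. For Zic1 over Pax3 it went from 0.0493 to 0.0755, and for Twist1 over Twist2 from 0.125 to 0.0808. Of the listed lengths of the 10 factors, 7 were multiples of 3, against 42.5% of all genes, and whether untranslated regions were counted was not tested, so ratios between genes depend on the listed models.

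Other factors of crest specification were measured beside the 10. Of 20 measured, 13 were above 1 TPM, 3 below, 1 in neither direction and 3 had no count. Among those with a count, the shares were near the 78.4% above and 17.8% below of all genes tested. The list median was 3.57 ± 0.171 TPM. Sox10, the glial factor of the crest, was at 612 ± 26.0, Lmo4, a LIM partner of Snai2, at 502, 486 and 479 TPM in replicates 1, 2 and 3, and Rxrg, a nuclear receptor gene, at 89.7 ± 2.38. Genes under 1 TPM in every library included Msx1, at 0.462 ± 0.216, Prdm1, Pax7, Tfap2e and Hand1.

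The libraries were close for the 10 factors. The highest library exceeded the lowest by 1.052-fold for Pax3 up to 1.20-fold for Zic1. Counting error alone gives a coefficient of variation (CV) of 1.17% for Zeb2 up to 7.06% for Pax3. For 5 factors, Snai2, Twist1, Tfap2a, Tfap2b and Pax3, the CV was at or below that of counting error. Zic1 had the largest CV, 9.53% against 4.01% from counting, and 95.8% of 2422 genes of similar count had a lower one. The CV of Ets1 was 4.79% (89.5% of genes of similar count lower), that of Zeb1 4.57% (89.2%) and that of Zeb2 3.03% (73.7%), each above counting error. Replicate 1 held the highest value of 7 of the 10 factors, and of 42.6% of all genes with a mean of 10 TPM or more. Replicate 2 held the lowest value of 7, against 38.4% of those genes. With 3 libraries these shares are given as a description.

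**Figure D4:**
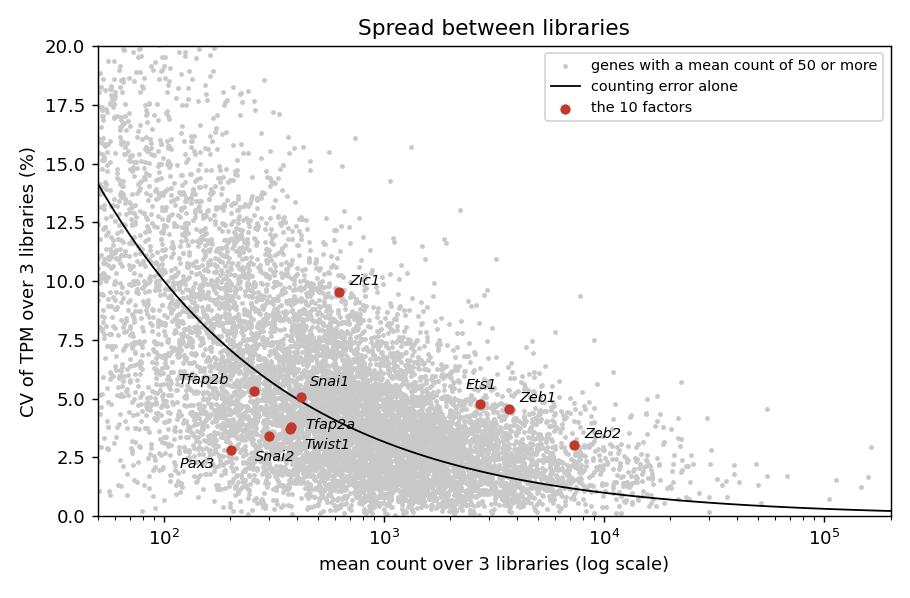
The CV of TPM over the 3 libraries against the mean count (log axis), for the 10 factors (red) and all genes with a mean count of 50 or more (grey), with the CV that counting error alone gives as a line. Zic1 at 9.53% lies highest among the factors, and 83 grey genes above 20% are outside the plot.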

How the data were processed

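Libraries were made with a stranded mRNA kit, per the labels' protocols. The deposited table holds raw counts per gene, counts over length as a signal that the authors computed, and TPM that the authors made from counts and listed gene lengths, per the file headers. The submitters' processing notes name STAR 2.5.2b, Subread and the rn6 build. Annotation, strand setting and handling of multimapped reads were not given in the sources used here. Recomputing TPM from the counts gave values within 0.0005 of those deposited. The 2 rows without a gene name and 6 columns of library totals were not used.

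Total counts per library were 15309526, 14139074 and 14162738. Libraries were matched by the title or number in the column name. A chi-square statistic per degree of freedom of 2.35, 1.87 and 1.67 over genes with at least 20 counts showed that no pair of libraries differed by sampling noise alone. Intervals and floors cover counting error only.

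The test of levels was run in R 4.3.3 with limma 3.58.1 on log2(TPM + 1), set against 1 TPM, for every gene with a count, moderated with trend, two-sided, with Benjamini-Hochberg adjustment over all genes. Pairs were tested as log2 ratios with 0.1 TPM added, in a fit of all genes against each reference gene. TMM factors came from edgeR 4.0.16. The scripts were tested on simulated data. Genes named are the 10 factors, pair members, the 3 highest of each list, list members under 1 TPM in every library and genes with overlapping exons, of which none was found. Of the genes this rule names, 1 is not reported here. Other genes given were chosen after their values were seen. The members and lists were chosen with earlier results of these data known. Of 200 list genes 185 were measured, and 15 were not used here. Promoter windows come from RefSeq (GRCr8).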

Additional observations from a re-analysis of the deposited data

How the results depend on the processing

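The levels of the 10 factors stayed above 1 TPM with pseudocounts of 0.1 and 0.5 TPM, levels of 0.5 and 2 TPM, other filters, no trend, TMM scaling per kilobase and without each replicate in turn, 10 of 10 in each. The 11 pair ratios kept direction and call under the 10 alternatives tried. The largest limma adjusted p of a pair over those alternatives was 0.00341, for Twist1 over Tcf4 with limma without trend. Of all 13345 genes tested, 78.4% were above 1 TPM and 17.8% below. Of 123 genes in the related lists, 87 were above 1 TPM (83 to 92 over the alternatives) and 23 below. The number below was 9 when a mean of at least 0.1 TPM was required, a filter that removes near-silent genes from the test, and 30 with no filter on low values. Depth limits the low genes: the levels of Krt5, Krt14, Krt18 and Krt19 rest on 1 count each. No pairing of samples between groups was possible because the libraries form 1 group. The ratios of gene pairs were taken within each library.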
